A study of Arabidopsis thaliana with 24 samples.

Results

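The SMALL AUXIN UP RNA (SAUR) genes of Arabidopsis pistils were taken as every gene whose symbol in the deposited count table is SAUR followed by a number and nothing else. This gave 25 of 33055 genes. All 25 were detected, with at least 10 counts summed over the 24 libraries, and the lowest was SAUR10 with 14 counts. A filter on low counts left 21 of them among the 21312 genes fitted. SAUR10, SAUR28 (72 counts), SAUR40 (84 counts) and SAUR77 (95 counts) were not fitted, and none of them exceeded 0.925 CPM in any library. The table names only part of the family: 54 further genes that RefSeq lists as SAUR carry no SAUR symbol there, and 37 of these were fitted.

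SAUR genes encode small plant proteins, and many of their transcripts accumulate within minutes of an auxin treatment. SAUR proteins inhibit phosphatases of the PP2C.D clade, which otherwise keep plasma membrane proton pumps in a less active state, so that the cell wall is acidified and the cell expands. In seedlings, warm temperature raises the transcripts of several SAUR genes through the transcription factor PIF4, whose activity is restrained by phytochrome B, a receptor of red light and temperature. PIF proteins bind the G-box and the PBE-box in DNA, and auxin response factors bind the auxin response element.

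Pistils at flower stages 11 to 12, before anthesis, were compared in 6 groups with 4 biological replicates each. The genotypes were 35S::PIF4 (labelled PIF4ox), in which the 35S promoter of cauliflower mosaic virus drives PIF4 broadly; phyB (phyb-9), a mutant of phytochrome B; and the wild type Col-0. Plants had a photoperiod of 16 h (150 µmol light) with 8 h nights, and either moved at the start of flowering to high ambient temperature (hAT, 28 °C in the light and 24 °C in the dark) or kept at normal ambient temperature (nAT, 21 °C in the light and 18 °C in the dark). The labels name ovules as the extracted material and pistils as the tissue, and the study's methods name whole pistils, so the transcripts come from a mixture of cell types. In such bulk samples fewer cells of a type and less RNA per cell cannot be told apart. Whether several plants were pooled per replicate is not stated.

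Libraries held 18379748 to 30184035 counts. The 4 Col-0 libraries at nAT stood apart from the other 20: the mean length of the genes their counts fell on was 1612 to 1804 bases, against 2065 to 2220 bases, and their 10 most abundant genes took 6.42% to 6.62% of the counts, against 3.28% to 3.86%. The fitted SAUR genes are short, with a median length of 817 bases (602 to 1205), against 1731 bases over all fitted genes. Beside results that use Col-0 at nAT, counts and the values of most named genes are also given from a fit with a length offset, in which the dependence of the counts on gene length was smoothed and taken out of every library. The 7 pistil markers, summed, lay between 421 and 557 CPM (counts scaled to a common library size with TMM factors) in every library, and none of the 7 was at 0. Single pistil markers were not level: CRC had a mean of 15.0 CPM in warm Col-0 and, at nAT, 25.6 CPM in phyB plants and 13.0 CPM in 35S::PIF4 plants, against 41.7 CPM in Col-0 at nAT, and INO averaged 44.0, 49.2 and 49.6 CPM in these groups, against 72.3 CPM in Col-0 at nAT. SHP1 stood in the opposite order, averaging 88.4, 101.9 and 82.4 CPM in them, against 57.5 CPM in Col-0 at nAT. The petal and stamen identity genes AP3 and PI summed to 29.1 to 69.6 CPM over the other 20 libraries, against 75.8 to 101.6 CPM in Col-0 at nAT; PI carried this, at a mean of 14.7 to 27.3 CPM in the other groups, against 51.8 CPM in Col-0 at nAT. The 6 tapetum markers summed to 12.3 to 15.7 CPM in phyB at nAT and to at most 3.02 CPM in the other groups. EXL4 made up a mean of 12.8 CPM of that sum in phyB at nAT, while A9, ATA7 and CYP703A2 averaged at most 0.0788 CPM there. The 5 pollen markers summed to 119 to 128 CPM in Col-0 at hAT, against 25.4 to 54.2 CPM in Col-0 at nAT. VGD1 (a mean of 97.2 against 25.2 CPM) and PPME1 (26.4 against 14.1 CPM) made up most of these sums. DUO1 was near 0 throughout, with a mean of at most 0.0847 CPM in any group, and at 0 in all libraries of 35S::PIF4 at hAT. The part of other cell types in the SAUR results was not tested. In the targeted genes, PIF4 averaged 5.93 CPM in 35S::PIF4 at nAT against 2.11 CPM in Col-0 at nAT. At hAT it averaged 4.42 CPM in 35S::PIF4 against 2.43 CPM in Col-0, a log2 fold change of 0.86 that did not reach the fold threshold used for calls. PHYB was still transcribed in phyB at nAT, at 62.8 CPM against 79.5 CPM in Col-0 at nAT.

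The members lie on all chromosomes, and 12 of the 25 sit in tandem arrays. SAUR19, SAUR20, SAUR21, SAUR22, SAUR23 and SAUR24 lie within 21536 bases of chromosome 5 (5962773 to 5984308, TAIR10), and SAUR62, SAUR63, SAUR64, SAUR66, SAUR67 and SAUR68 lie within 20655 bases of chromosome 1 (10302585 to 10323239). These arrays hold the SAUR19 group, whose members promote cell expansion in seedlings, and the SAUR63 group, which promotes elongation of hypocotyls and stamen filaments. Coding sequences were 88.3% to 95.9% identical between pairs of the SAUR19 group (15 pairs, median 92.5%) and 81.6% to 93.1% between pairs of the SAUR63 group (15 pairs, median 84.5%). Over all other pairs of members identity was 54.8% to 82.0%. No stretch of 150 bases, the length of a read, was shared exactly within the SAUR19 group. SAUR63 and SAUR67 shared 45 such stretches, which is 9.93% of those of SAUR63 and 6.74% of those of SAUR67. SAUR62 shared 13 (1.9% of its own) with AT5G27780, which is not among the members. How reads were split between such copies is not stated, so the single values of SAUR19 to SAUR24 and of SAUR62 to SAUR68 are uncertain to that extent. SAUR63 and SAUR64 also overlap AT1G29435 on the opposite strand, which had 13 counts in all.

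The 250 bases before each annotated start were read from the RefSeq genome TAIR10.1, in which all 25 members have the coordinates of the count table. The PBE-box, CACATG on either strand (CATGTG when read on the strand of the gene), was present in 11 of the 25 windows (44.0%), against 11.1% of 27419 windows of nuclear protein-coding genes. These were SAUR15, SAUR19, SAUR21, SAUR22, SAUR28 and all 6 members of the SAUR63 group. The auxin response element, TGTCTC on either strand (GAGACA), was present in 6 (24.0%, against 10.9%), namely SAUR15, SAUR20, SAUR22, SAUR62, SAUR66 and SAUR67. The G-box, CACGTG, was present in 0 of 25, against 6.48%. The 3 motifs do not overlap each other in these windows, neighbours in an array share sequence by descent, and a match is a description of letters, not a binding site. All 6 members of the SAUR63 group in the array carry a PBE-box, and 3 of them were called higher in 35S::PIF4 than in Col-0 at hAT. The windows of SAUR61, SAUR65 and SAUR75 were not looked at singly. SAUR19, with a PBE-box, and SAUR20, with none in its window, were also called higher there. A part of the motif in these calls was not tested. In the SAUR63 group the PBE-box stands in a shared context, shown here for the 6 members in the array. The 32 bases around 1 PBE-box of each are given from 5′ to 3′ on the strand of the gene, with the motif in capitals and coordinates of TAIR10.1:
SAUR62 (chr1:10303508-10303539, minus strand): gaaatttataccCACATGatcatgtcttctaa
SAUR63 (chr1:10305282-10305313, minus strand): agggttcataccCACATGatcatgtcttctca
SAUR64 (chr1:10306671-10306702, minus strand): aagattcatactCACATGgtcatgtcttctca
SAUR66 (chr1:10320963-10320994, plus strand): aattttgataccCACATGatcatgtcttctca
SAUR67 (chr1:10322369-10322400, plus strand): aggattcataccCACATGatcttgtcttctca
SAUR68 (chr1:10319526-10319557, plus strand): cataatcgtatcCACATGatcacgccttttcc

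The full windows of 4 members are given because SAUR21 changed most with temperature in Col-0, SAUR22 is its neighbour with both an auxin response element and a PBE-box, SAUR66 is among the most abundant members, and SAUR68 responded to temperature in 35S::PIF4. Capitals mark the PBE-box and the auxin response element on either strand, and coordinates are those of TAIR10.1:
SAUR21 (chr5:5968102-5968351, plus strand): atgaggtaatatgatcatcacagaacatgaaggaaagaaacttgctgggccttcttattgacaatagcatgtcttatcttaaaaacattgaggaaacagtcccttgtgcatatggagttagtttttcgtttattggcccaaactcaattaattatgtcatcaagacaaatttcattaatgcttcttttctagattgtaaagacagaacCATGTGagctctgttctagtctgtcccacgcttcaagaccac
SAUR22 (chr5:5975088-5975337, minus strand): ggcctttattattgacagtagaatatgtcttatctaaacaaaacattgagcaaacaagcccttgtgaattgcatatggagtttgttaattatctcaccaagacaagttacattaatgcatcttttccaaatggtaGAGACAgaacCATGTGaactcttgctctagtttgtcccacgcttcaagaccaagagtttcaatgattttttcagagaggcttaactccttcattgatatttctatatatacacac
SAUR66 (chr1:10320761-10321010, plus strand): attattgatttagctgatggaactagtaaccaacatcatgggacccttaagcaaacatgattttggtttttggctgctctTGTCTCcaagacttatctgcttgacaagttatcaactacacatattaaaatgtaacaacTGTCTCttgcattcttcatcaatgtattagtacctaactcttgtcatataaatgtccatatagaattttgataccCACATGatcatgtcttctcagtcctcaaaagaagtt
SAUR68 (chr1:10319482-10319731, plus strand): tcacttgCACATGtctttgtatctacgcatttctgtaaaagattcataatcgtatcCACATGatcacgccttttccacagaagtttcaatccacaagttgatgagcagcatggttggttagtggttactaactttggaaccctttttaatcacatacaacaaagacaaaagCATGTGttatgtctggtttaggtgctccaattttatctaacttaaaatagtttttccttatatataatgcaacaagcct
In SAUR21 the PBE-box lies 42 to 37 bases before the start, and in SAUR22 it lies 105 to 100 bases before it, 4 bases downstream of the auxin response element. SAUR66 holds auxin response elements at both 170 to 165 and 111 to 106 bases before the start, and SAUR68 holds 3 PBE-boxes. The window of SAUR50, the member with the highest level, held none of the 3 motifs.

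Levels per gene length differed widely between members. On the scale of the deposited FPKM, averaged over all 24 libraries, SAUR50 was highest at 50.7, followed by SAUR67 at 32.6, SAUR66 at 31.2, SAUR78 at 9.42, SAUR21 at 8.74 and SAUR62 at 8.42. SAUR10 was lowest at 0.0291 FPKM. Summed over all 25 members, the libraries held 157 to 166 CPM in 35S::PIF4 at hAT, 134 to 160 CPM in 35S::PIF4 at nAT, 105 to 113 CPM in phyB at hAT, 126 to 137 CPM in phyB at nAT, 110 to 121 CPM in Col-0 at hAT and 304 to 440 CPM in Col-0 at nAT. Col-0 at nAT lay above every other group, and its replicate 2 was the highest library.

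To see how the SAUR genes of wild-type pistils responded to hAT, Col-0 at hAT was compared with Col-0 at nAT. Of the 21 fitted members 16 were lower and 1 was higher, where a call needed an adjusted p below 0.05 together with a log2 fold change of 1 or more in either direction. Among all fitted genes 13.4% were lower and 24.2% were higher. The median log2 fold change of the members was -1.27, against 0.14 over all genes. SAUR32, SAUR36, SAUR41 and SAUR71 were not called, with log2 fold changes of 0.71, 0.55, 0.22 and -0.22. With the length offset 9 members remained lower (background 11.1%) and 2 were higher (background 17%), all 9 being among the 16, and the median was -0.67. SAUR77, which the filter on low counts had removed, was called lower without that filter (log2 fold change -2.91, adjusted p = 0.00102 by edgeR) and in DESeq2 (-3.08), and SAUR40 was called higher without it (1.52, adjusted p = 0.0326) but not in DESeq2 (1.46, adjusted p = 0.0592).

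SAUR21, a member of the SAUR19 group, fell most. Its libraries had 4.29, 2.98, 3.13 and 2.71 CPM in Col-0 at hAT, against 16.9, 23.4, 17.2 and 18.8 CPM in Col-0 at nAT. The groups did not overlap, and the log2 fold change was -2.53 ± 0.13 (SE, adjusted p = 2.6e-15, edgeR's quasi-likelihood test). With the length offset it was -1.89. All 6 members of this group were lower at hAT, with a median of -2.03, and all 6 were lower with the length offset, with a median of -1.52. SAUR22 had 0.542, 0.140, 0.719 and 1.08 CPM in Col-0 at hAT, against 3.53, 3.15, 2.29 and 2.67 CPM in Col-0 at nAT, a log2 fold change of -2.18 ± 0.30. SAUR24 had 1.39, 1.35, 1.35 and 1.05 CPM in Col-0 at hAT, against 4.36, 7.42, 4.78 and 6.53 CPM in Col-0 at nAT, a log2 fold change of -2.16 ± 0.24. Neither gene overlapped between the groups. SAUR20 and SAUR23 changed by -1.70 ± 0.15 and -1.79 ± 0.17. In SAUR19 a single library decided much of the size. Its levels were 1.24, 1.21, 1.99 and 1.47 CPM in Col-0 at hAT, against 4.43, 11.1, 3.71 and 3.37 CPM in Col-0 at nAT. The log2 fold change was -1.90 ± 0.29, and -1.37 without replicate 2 of Col-0 at nAT.

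**Figure D1:**
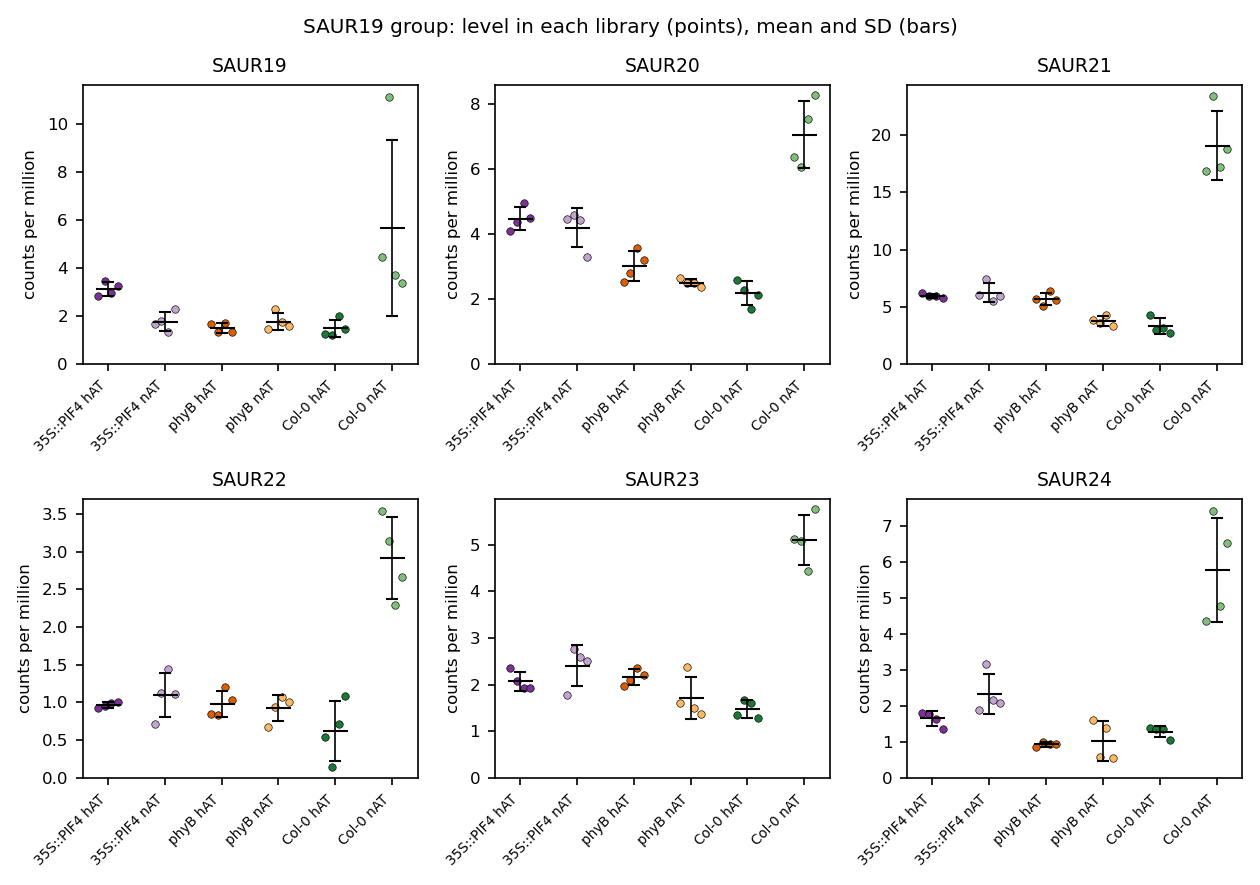
Levels of the 6 SAUR19 group genes in CPM (vertical axes, from 0) in each library (points), with the mean and SD of 4 libraries per group (bars). In all 6 panels every Col-0 nAT library stood above every Col-0 hAT library, and SAUR19 in Col-0 nAT ranged from 3.37 to 11.1 CPM. The share of all fitted genes that separate in this way was not counted. By edgeR 35.5% of them were lower in Col-0 hAT than in Col-0 nAT at an adjusted p below 0.05 with no fold threshold.

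SAUR50, which is induced by light in the cotyledons of seedlings and acts there in cotyledon opening, was the most abundant member. It had 20.7, 23.2, 24.0 and 22.4 CPM in Col-0 at hAT, against 113, 175, 94.3 and 104 CPM in Col-0 at nAT. The log2 fold change was -2.43 ± 0.14 (SE, adjusted p = 1.66e-14, edgeR), and -1.78 with the length offset. SAUR50 was also lower at hAT in the other genotypes, by less than the fold threshold. It had 24.7, 19.7, 22.2 and 21.1 CPM in phyB at hAT, against 42.1, 40.6, 39.8 and 37.9 CPM in phyB at nAT (log2 fold change -0.87 ± 0.14, adjusted p = 1.59e-05). In 35S::PIF4 it had 24.9, 24.4, 26.6 and 31.1 CPM at hAT, against 31.8, 43.6, 33.3 and 41.6 CPM at nAT (log2 fold change -0.49 ± 0.14, adjusted p = 0.00409). The hAT and nAT libraries of each genotype did not overlap, and at hAT the 3 genotypes lay between 19.7 and 31.1 CPM.

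The SAUR63 group was lower at hAT in Col-0 for all 6 members, with a median log2 fold change of -1.22. With the length offset the median was -0.64 and only SAUR63 passed, at -1.21 against -1.57 ± 0.18 without it. SAUR66, among the most abundant members, had 24.4, 21.4, 23.9 and 21.8 CPM in Col-0 at hAT, against 49.5, 73.3, 46.6 and 52.5 CPM in Col-0 at nAT. Its log2 fold change was -1.27 ± 0.09, and -0.67 with the length offset. SAUR67 had 20.1, 19.96, 22.1 and 21.1 CPM in Col-0 at hAT, against 42.9, 54.3, 45.2 and 44.9 CPM in Col-0 at nAT, a log2 fold change of -1.17 ± 0.08 and, with the offset, -0.53. Both genes kept the direction and lost the call. SAUR62, a gene that acts in pollen tube growth, changed by -1.37 ± 0.14, and SAUR64 by -1.16 ± 0.16. With the offset SAUR62 was at -0.75 and SAUR64 at -0.54. SAUR68 overlapped between the groups, with 1.47, 1.54, 2.41 and 1.94 CPM in Col-0 at hAT, against 4.78, 2.34, 3.98 and 4.46 CPM in Col-0 at nAT. Its log2 fold change of -1.09 ± 0.22 was -0.99 without replicate 1 of Col-0 at nAT and -0.995 without replicate 1 of Col-0 at hAT, both short of the fold threshold, and -0.61 with the length offset.

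Of the remaining members, SAUR78 is grouped with SAUR76, which interacts with ethylene receptors, although their coding sequences are 65.5% identical, a value common among other pairs. SAUR78 had 8.86, 7.07, 7.87 and 7.09 CPM in Col-0 at hAT, against 20.4, 21.5, 19.6 and 22.6 CPM in Col-0 at nAT, with no overlap. Its log2 fold change was -1.44 ± 0.10, and -1.06 with the length offset. SAUR72, which belongs to the SAUR41 group of cell expansion genes, had 6.51 to 8.00 CPM in Col-0 at hAT, against 12.5 to 18.1 CPM in Col-0 at nAT, a log2 fold change of -1.13 ± 0.14 that was -0.54 with the offset. SAUR15, the first SAUR gene described in Arabidopsis, had 0.542, 0.419, 0.846 and 0.620 CPM in Col-0 at hAT, against 1.25, 1.13, 0.539 and 1.96 CPM in Col-0 at nAT. These groups overlapped, and the log2 fold change of SAUR15 was -1.02 ± 0.35, -0.66 without replicate 4 of Col-0 at nAT, -0.97 and -0.89 without replicates 1 and 2 of Col-0 at hAT, and -0.42 with the length offset. Its call therefore rested on those libraries and on the processing.

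SAUR76 was the member that rose in Col-0, with 1.24, 1.40, 1.01 and 1.16 CPM at hAT, against 0.346, 0.807, 0.674 and 0.544 CPM at nAT. Its log2 fold change was 1.03 ± 0.30 (SE, adjusted p = 0.00274, edgeR), close to the fold threshold: it was 0.85 and 0.99 without replicates 1 and 4 of Col-0 at nAT, 0.96 without replicate 2 of Col-0 at hAT, 0.96 in DESeq2, 0.95 with the RLE normalization and 1.56 with the length offset. The rise of SAUR76 in phyB was called as well. It had 1.89, 3.05, 1.70 and 2.72 CPM in phyB at hAT, against 1.12, 0.984, 0.752 and 1.09 CPM in phyB at nAT, a log2 fold change of 1.23 ± 0.24 (adjusted p = 0.000151). In 35S::PIF4 it had 1.52, 1.08, 1.65 and 1.69 CPM at hAT, against 0.885, 0.732, 0.816 and 1.30 CPM at nAT, and was not called at 0.68 ± 0.25. The temperature responses of SAUR76 did not differ between genotypes by a called amount (0.21 for phyB minus Col-0, adjusted p = 0.656; -0.35 for 35S::PIF4 minus Col-0, adjusted p = 0.438), and the term for 35S::PIF4 was -0.89 with the offset.

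In phyB at hAT against phyB at nAT, 2 of the 21 members were higher and 0 were lower. The background was 4.63% higher and 3.46% lower, and the median log2 fold change was 0.12. In 35S::PIF4 at hAT against 35S::PIF4 at nAT, 2 members were higher and 0 lower, with a background of 8.5% higher and 2.48% lower and a median of 0.38. The counts were the same with the length offset (background 4.68% higher and 3.3% lower in phyB, 8.52% and 2.48% in 35S::PIF4). These comparisons do not use the Col-0 libraries at nAT. By edgeR at an unadjusted p below 0.05 with no fold threshold, 5 members were higher (background 25%) and 3 lower (SAUR50, SAUR66 and SAUR67, background 25.9%) in phyB. In 35S::PIF4 12 members were higher (background 28%) and 2 lower (SAUR50 and SAUR72, background 29.9%), and the 12 and the 2 also had an adjusted p below 0.05 (background 25.6% higher and 27.5% lower). DESeq2 also called 0 lower in both.

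SAUR36, which promotes leaf senescence, was higher at hAT in both of these genotypes. It had 0.808, 0.654, 1.26 and 0.796 CPM in phyB at hAT, against 0.449, 0.224, 0.198 and 0.0911 CPM in phyB at nAT (log2 fold change 1.88 ± 0.38, adjusted p = 0.000292). It had 1.25, 0.831, 0.943 and 0.824 CPM in 35S::PIF4 at hAT, against 0.295, 0.0998, 0.466 and 0.139 CPM in 35S::PIF4 at nAT (1.93 ± 0.37, adjusted p = 0.000113). Neither pair of groups overlapped. In Col-0 it had 0.851, 0.791, 0.719 and 0.968 CPM at hAT, against 0.693, 0.645, 0.472 and 0.490 CPM at nAT, a log2 fold change of 0.55 ± 0.36 (adjusted p = 0.166). The responses of phyB and 35S::PIF4 exceeded that of Col-0 by 1.33 ± 0.54 (adjusted p = 0.0312) and 1.38 ± 0.53 (adjusted p = 0.0243), and both terms lost the call with the length offset (0.99 and 1.03, adjusted p = 0.109 and 0.092). Both also lost it without single libraries: the term for phyB lay between 1.07 and 1.298 without replicates 1 or 2 of Col-0 at nAT, 3 of Col-0 at hAT, 2, 3 or 4 of phyB at nAT or 3 of phyB at hAT, and the term for 35S::PIF4 between 1.11 and 1.27 without replicates 1 of Col-0 at nAT, 2 or 4 of 35S::PIF4 at nAT or 1 of 35S::PIF4 at hAT. SAUR36 lay at or under 1.26 CPM in every library.

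SAUR68 was the other member that rose in 35S::PIF4. It had 4.06, 4.65, 3.91 and 3.85 CPM in 35S::PIF4 at hAT, against 1.43, 1.16, 0.932 and 2.00 CPM in 35S::PIF4 at nAT, with a log2 fold change of 1.59 ± 0.22 (SE, adjusted p = 8.81e-07, edgeR). In phyB it had 1.71, 1.57, 1.51 and 1.97 CPM at hAT, against 1.21, 1.65, 1.15 and 1.05 CPM at nAT, and 0.41 ± 0.24 was not called. The response of 35S::PIF4 exceeded that of phyB by 1.18 ± 0.33 (adjusted p = 0.00845), and by 1.07 with the length offset. SAUR71, of the SAUR41 group, was the only other member whose temperature response was called as different between 35S::PIF4 and phyB, by 1.28 ± 0.34 (adjusted p = 0.00696), among 5.46% higher and 0.896% lower over all genes. It had 1.94, 1.87, 1.60 and 2.11 CPM in 35S::PIF4 at hAT, against 0.927, 1.26, 0.621 and 1.11 CPM in 35S::PIF4 at nAT, and 1.39, 1.31, 1.20 and 1.69 CPM in phyB at hAT, against 2.02, 1.92, 1.54 and 1.59 CPM in phyB at nAT. Within each genotype SAUR71 was not called, at 0.93 ± 0.25 in 35S::PIF4 and -0.35 ± 0.24 in phyB, and without replicate 2 of 35S::PIF4 at nAT the response in 35S::PIF4 was called at 1.11.

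**Figure D2:**
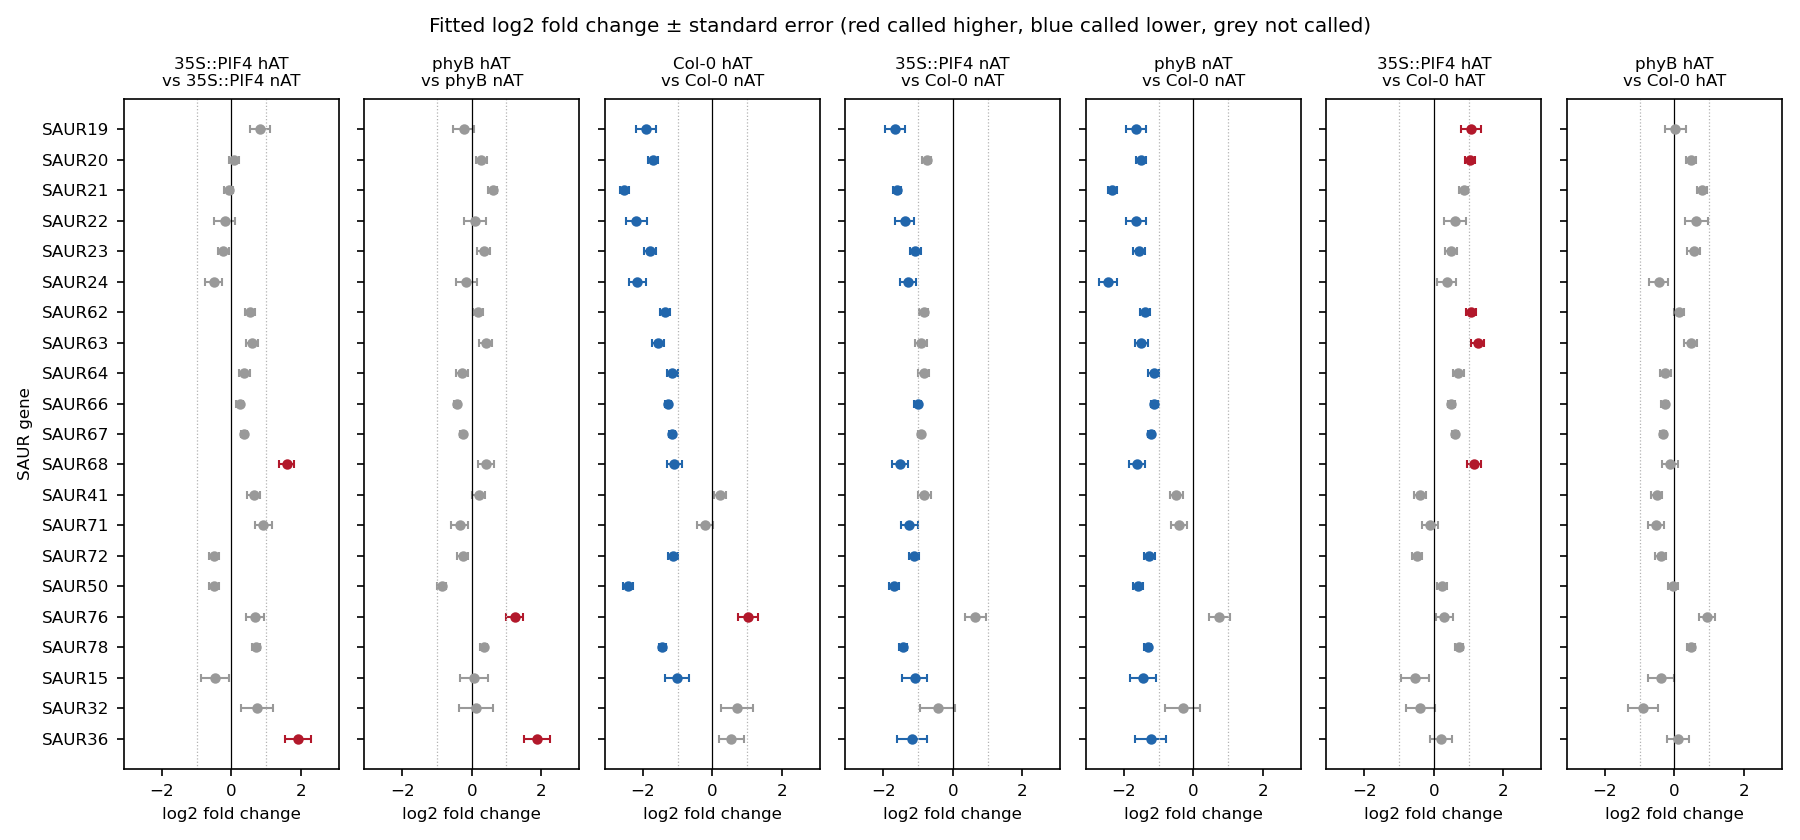
Log2 fold change (horizontal axes) with its standard error for the 21 fitted SAUR genes (vertical axis) in 7 comparisons of groups of 4 libraries; red is called higher, blue called lower, grey not called, and dotted lines mark a log2 fold change of 1 in either direction. The comparisons of Col-0 hAT, phyB nAT and 35S::PIF4 nAT against Col-0 nAT held 16, 17 and 13 lower members, and those within phyB and within 35S::PIF4 held 0.

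The temperature responses themselves were compared between genotypes by interaction terms. The response of phyB exceeded that of Col-0 in 12 of 21 members and was below it in 0, with a background of 10.6% and 21.6% and a median of 1.502. The response of 35S::PIF4 exceeded that of Col-0 in 16 members and was below it in 0, with a background of 11.8% and 19.4% and a median of 1.57. In the fit with the length offset 11 members were called higher in each (background 9.63% for phyB and 10.1% for 35S::PIF4). No member was below Col-0 at an unadjusted p below 0.05 by edgeR (0 of 21 in both terms, background 40.8% for phyB and 38.4% for 35S::PIF4), and DESeq2 called 0. Both terms contain the Col-0 libraries at nAT. All 6 members of the SAUR19 group were called in both, with and without the offset: SAUR21 differed by 3.13 ± 0.19 for phyB (adjusted p = 2.37e-13) and by 2.46 ± 0.19 for 35S::PIF4 (adjusted p = 1.45e-11). SAUR21 itself had 5.66, 5.10, 6.37 and 5.58 CPM in phyB at hAT, against 3.82, 3.58, 4.28 and 3.33 CPM in phyB at nAT, with a log2 fold change of 0.60 ± 0.14, and 6.18, 5.90, 5.94 and 5.77 CPM in 35S::PIF4 at hAT, against 6.07, 7.39, 5.48 and 5.95 CPM in 35S::PIF4 at nAT, with -0.07 ± 0.13.

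At nAT, phyB was compared with Col-0 to see which SAUR genes differed when phytochrome B was lost, without warming. In phyB 17 of 21 members were lower and 0 were higher, with a background of 11.9% lower and 21.2% higher and a median log2 fold change of -1.40. In 35S::PIF4 against Col-0 at nAT 13 were lower and 0 higher, with a background of 12.2% lower and 19.3% higher and a median of -1.10. With the length offset the counts were 7 lower and 1 higher in phyB (background 9.05% and 14%) and 5 lower and 1 higher in 35S::PIF4 (background 10.4% and 12%), the member called higher being SAUR76 in both (1.31 and 1.14). By edgeR at an unadjusted p below 0.05 with no fold threshold, 1 member was higher in each mutant (SAUR76, background 43.1% in phyB and 40.6% in 35S::PIF4), and DESeq2 called 0 higher in both. These comparisons and that of Col-0 at hAT share the same 4 Col-0 libraries at nAT, so their similarity is no independent result.

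SAUR24 changed most in phyB at nAT, with 1.62, 0.581, 1.39 and 0.547 CPM, against 4.36, 7.42, 4.78 and 6.53 CPM in Col-0 at nAT (log2 fold change -2.46 ± 0.25, adjusted p = 1.69e-09). In 35S::PIF4 at nAT it had 1.90, 3.16, 2.18 and 2.09 CPM, and the log2 fold change against Col-0 at nAT was -1.29 ± 0.23, or -0.87 with the length offset. SAUR21 had a log2 fold change of -2.34 ± 0.13 in phyB and -1.61 ± 0.12 in 35S::PIF4, which were -1.70 and -1.05 with the offset. The SAUR19 group as a whole had 6 of 6 members lower in phyB (median -1.65) and 5 of 6 in 35S::PIF4 (median -1.34), where SAUR20 was at -0.75 and not called. With the offset these counts were 5 and 2. SAUR50 had a log2 fold change of -1.60 ± 0.13 in phyB and -1.69 ± 0.13 in 35S::PIF4, and -0.96 and -1.12 with the offset. SAUR78 had 7.95, 8.45, 9.03 and 8.43 CPM in phyB at nAT and 7.41, 9.35, 8.04 and 6.13 CPM in 35S::PIF4 at nAT, against 20.4, 21.5, 19.6 and 22.6 CPM in Col-0 at nAT. Its log2 fold changes were -1.31 ± 0.10 in phyB and -1.43 ± 0.10 in 35S::PIF4. The values with the length offset were -0.94 and -1.11, and the call in phyB was lost, as it was for SAUR50.

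The SAUR63 group differed in count between the mutants at nAT, with 6 of 6 members lower in phyB (median -1.31) and SAUR66 and SAUR68 lower in 35S::PIF4. After the offset 2 members (SAUR63 and SAUR68) were lower in phyB and 1 (SAUR68) in 35S::PIF4. The difference between the mutants was not tested. The other 4 members in 35S::PIF4 lay between -0.92 and -0.83, just inside the fold threshold, and SAUR63 and SAUR67 passed it with the RLE normalization and in DESeq2. SAUR66, at -1.01 ± 0.09 in 35S::PIF4, did not pass without replicate 2 of Col-0 at nAT (-0.85), without replicates 1 or 3 of 35S::PIF4 at nAT (-0.99 and -0.98) or without the filter on low counts (-0.98). SAUR68 had log2 fold changes of -1.63 ± 0.23 in phyB and -1.52 ± 0.23 in 35S::PIF4, which were -1.09 and -1.06 with the length offset.

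Further members were lower at nAT with calls that rested on single libraries or on the processing. SAUR36 had a log2 fold change of -1.23 ± 0.44 in phyB (-0.97 without replicate 4 of phyB at nAT, -0.84 with the length offset) and -1.18 ± 0.43 in 35S::PIF4 (-0.90 without replicate 2 of 35S::PIF4 at nAT, -0.83 with the offset). SAUR15 was at -1.46 ± 0.37 in phyB (-0.84 with the offset) and at -1.10 ± 0.35 in 35S::PIF4 (-0.73 without replicate 4 of Col-0 at nAT, -0.86 without replicate 4 of 35S::PIF4 at nAT, -0.55 with the offset). SAUR71 was at -1.25 ± 0.25 in 35S::PIF4 (-0.98 without replicate 2 of Col-0 at nAT, -0.69 with the offset), against -0.41 ± 0.24 in phyB, which was not called. SAUR23 in 35S::PIF4 was at -1.08 ± 0.16 (-0.96 without replicate 1 of 35S::PIF4 at nAT, -0.53 with the offset), and SAUR66 in phyB at -1.12 ± 0.09 (-0.97 without replicate 2 of Col-0 at nAT, -0.53 with the offset).

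At hAT no comparison uses the Col-0 libraries at nAT. In phyB against Col-0 at hAT, 0 of 21 members were higher and 0 lower, with a background of 1.56% and 3.22% and a median log2 fold change of -0.04. DESeq2 also called 0 in either direction. By edgeR with no fold threshold, 6 members were higher (background 18.7%) and 6 lower (background 21.3%) at an unadjusted p below 0.05, of which SAUR20, SAUR21, SAUR23, SAUR76 and SAUR78 (higher) and SAUR41, SAUR66, SAUR67 and SAUR72 (lower) had an adjusted p below 0.05 (background 13.9% higher and 16.1% lower). SAUR76 was the closest to the fold threshold, at 0.95 ± 0.23 (adjusted p = 0.00253), and it passed at 1.10 with the length offset, as the 1 member called (background 1.65% higher and 2.84% lower). In 35S::PIF4 against Col-0 at hAT, 5 members were higher and 0 lower, with a background of 1.47% and 1.61% and a median of 0.50. The 5 were SAUR19, SAUR20, SAUR62, SAUR63 and SAUR68, all from the tandem arrays. The offset left 4 of them higher (background 1.39%) and 0 lower (background 1.79%). By edgeR with no fold threshold 11 members were higher (background 15%) and 2 lower (background 18.3%) at an unadjusted p below 0.05, and 10 higher (background 10.2%) and 1 lower (background 12%) at an adjusted p below 0.05. DESeq2 called 1 lower, SAUR40 (log2 fold change -1.96), which the filter on low counts had removed.

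SAUR63 differed most in that comparison, with 5.40, 3.86, 5.56 and 6.09 CPM in 35S::PIF4 at hAT, against 2.28, 2.42, 2.37 and 1.66 CPM in Col-0 at hAT. The log2 fold change was 1.26 ± 0.18 (SE, adjusted p = 5.92e-06, edgeR). SAUR68 had 4.06, 4.65, 3.91 and 3.85 CPM in 35S::PIF4 at hAT, against 1.47, 1.54, 2.41 and 1.94 CPM in Col-0 at hAT, with 1.16 ± 0.21 (adjusted p = 0.000168). SAUR62 had 10.7, 9.80, 8.81 and 9.34 CPM in 35S::PIF4 at hAT, against 4.18, 4.98, 4.95 and 4.34 CPM in Col-0 at hAT, with 1.07 ± 0.14 (adjusted p = 2.17e-06). None of these overlapped between the groups. SAUR19 had 2.81, 3.45, 2.97 and 3.25 CPM in 35S::PIF4 at hAT, against 1.24, 1.21, 1.99 and 1.47 CPM in Col-0 at hAT, with 1.08 ± 0.29 (adjusted p = 0.00783). SAUR20 had 4.10, 4.36, 4.95 and 4.49 CPM in 35S::PIF4 at hAT, against 2.59, 2.28, 1.69 and 2.13 CPM in Col-0 at hAT, with 1.04 ± 0.15 (adjusted p = 8.98e-06). Both also stood apart without overlap but close to the threshold: SAUR19 was at 1.00 without replicate 1 or replicate 2 of Col-0 at hAT, just short of it, and SAUR20 was at 0.94 without replicate 3 of Col-0 at hAT, at 0.99 without replicate 3 of 35S::PIF4 at hAT and at 0.98 with the length offset. SAUR66 and SAUR67, with 30.2 to 33.9 and 30.5 to 34.9 CPM in 35S::PIF4 at hAT, against 21.4 to 24.4 and 19.96 to 22.1 CPM in Col-0 at hAT, had log2 fold changes of 0.50 ± 0.09 and 0.61 ± 0.08.

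**Figure D3:**
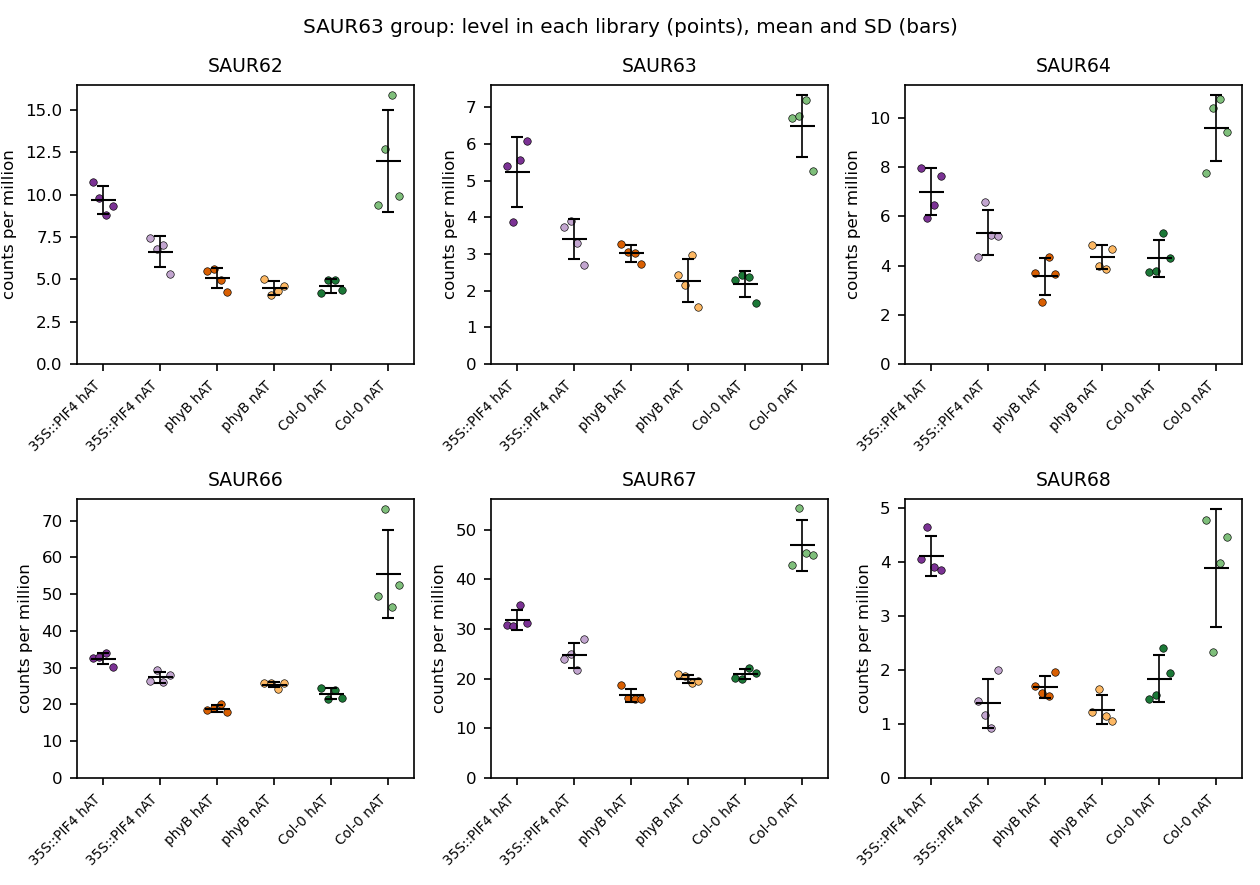
Levels of the 6 SAUR63 group genes in CPM (vertical axes, from 0) in each library (points), with the mean and SD of 4 libraries per group (bars). In 35S::PIF4 hAT every library of SAUR62 (8.81 to 10.7 CPM), SAUR63 (3.86 to 6.09 CPM) and SAUR68 (3.85 to 4.65 CPM) stood above every Col-0 hAT library.

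**Figure D4:**
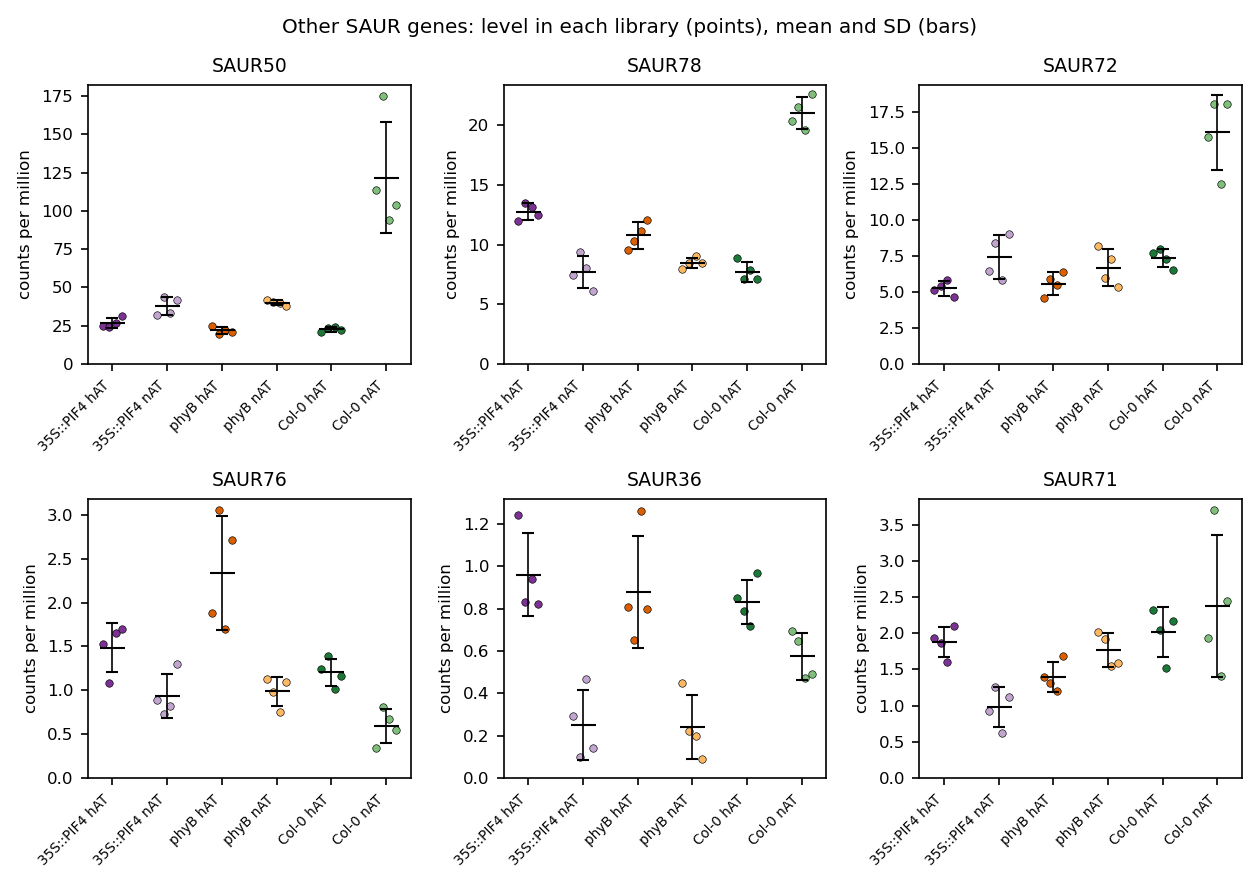
Levels of 6 other SAUR genes in CPM (vertical axes, from 0) in each library (points), with the mean and SD of 4 libraries per group (bars). SAUR50 reached 94.3 to 175 CPM in Col-0 nAT and at most 43.6 CPM elsewhere, and SAUR36 in the phyB and 35S::PIF4 panels was higher at hAT without overlap.

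Log2 fold changes against Col-0 at nAT varied with gene length across the whole table. Spearman's rho between a gene's log2 fold change and its length, over the 21312 fitted genes as a description, was 0.475 for 35S::PIF4 at nAT, 0.446 for phyB at nAT and 0.384 for Col-0 at hAT, each against Col-0 at nAT. It was 0.0193 within 35S::PIF4, 0.119 within phyB, 0.0289 for 35S::PIF4 against Col-0 at hAT and 0.21 for phyB against Col-0 at hAT. Every gene in such a comparison shares the same libraries. The same offset moved the targeted genes, with PIF4 in 35S::PIF4 against Col-0 at nAT at 0.93, against 1.46 without it. PHYB turned direction: its log2 fold change was -0.99 in Col-0 at hAT and -0.80 in 35S::PIF4 at nAT, against 0.39 and 0.52 without the offset, and in phyB at nAT it was called lower at -1.695, against -0.34 without it and not called. The cause of the length difference of the Col-0 libraries at nAT was not tested.

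**Figure D5:**
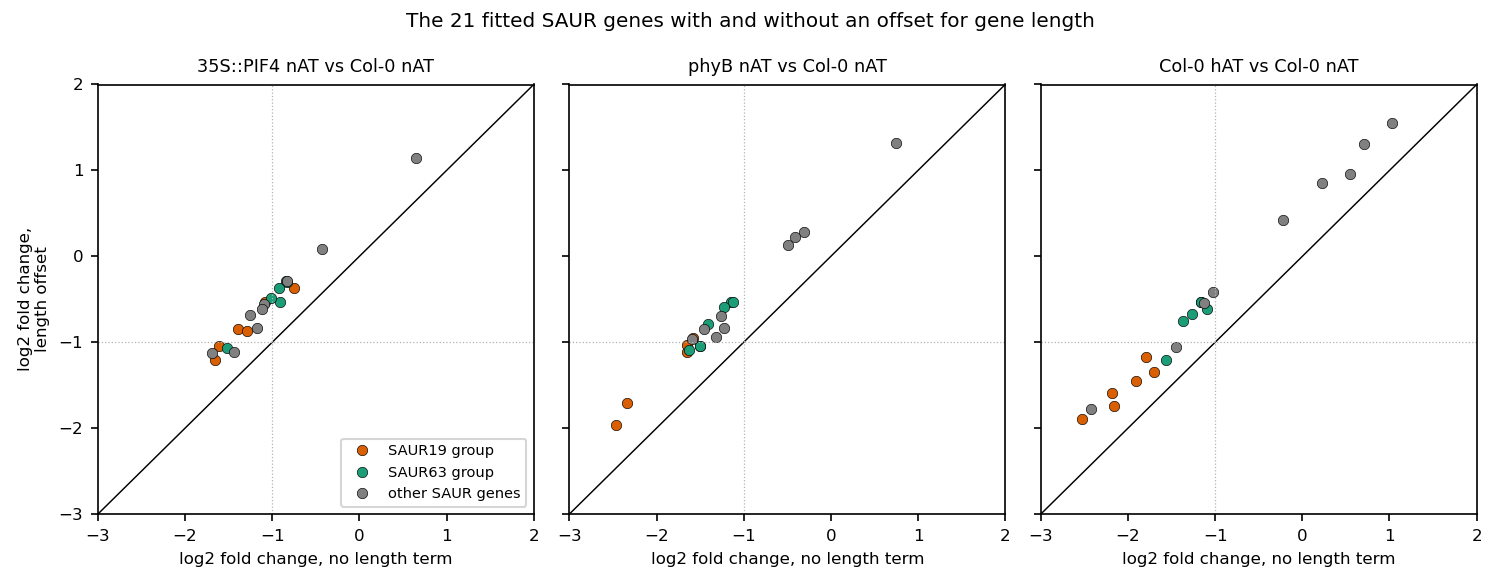
Log2 fold changes of the 21 fitted SAUR genes without (horizontal axes) and with (vertical axes) an offset for gene length in the 3 comparisons against Col-0 nAT; the solid line is equality and dotted lines mark -1. All points lie above the line, and the median for Col-0 hAT was -0.67 with the offset and -1.27 without it.

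The other SAUR family genes, the 37 fitted genes without a SAUR symbol in the table, were called as follows. In Col-0 at hAT against Col-0 at nAT 2 were higher (5.41%, against 24.2% of all genes) and 19 lower (51.4%, against 13.4%). The offset gave 3 (8.11%, against 17%) and 9 (24.3%, against 11.1%). In phyB against Col-0 at nAT 1 was higher (2.7%, against 21.2%) and 21 lower (56.8%, against 11.9%), or 2 (5.41%, against 14%) and 13 (35.1%, against 9.05%) with the offset. In 35S::PIF4 against Col-0 at nAT 2 were higher (5.41%, against 19.3%) and 20 lower (54.1%, against 12.2%), or 2 (5.41%, against 12%) and 12 (32.4%, against 10.4%) with the offset. Within phyB 3 were higher at hAT (8.11%, against 4.63%) and 2 lower (5.41%, against 3.46%), and within 35S::PIF4 4 were higher (10.8%, against 8.5%) and 0 lower (against 2.48%). In phyB against Col-0 at hAT 1 was higher (2.7%, against 1.56%) and 3 lower (8.11%, against 3.22%), and in 35S::PIF4 against Col-0 at hAT 2 were higher (5.41%, against 1.47%) and 1 lower (2.7%, against 1.61%). Among them, SAUR26 and SAUR27, natural variation in which is linked to growth in warmth, and which were picked here after their values were seen, had log2 fold changes in Col-0 at hAT of -2.72 ± 0.33 and -2.28 ± 0.39, or -2.16 and -1.72 with the length offset. SAUR27 was also higher in 35S::PIF4 than in Col-0 at hAT, by 1.42 ± 0.40 (adjusted p = 0.0113).

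Genes for the phosphatases that SAUR proteins inhibit, for the proton pumps these phosphatases act on, and for the auxin receptors were taken as lists. Of the 9 PP2C.D phosphatase genes, PP2C.D7 was lower in Col-0 at hAT (log2 fold change -1.02), which is 11.1% of the list, against 13.4% of all genes. PP2C.D1 was higher at nAT in phyB (1.05) and 35S::PIF4 (1.41), 11.1% in each, against 21.2% and 19.3% of all genes, and in the 4 comparisons that do not use Col-0 at nAT the 9 genes lay between -0.53 and 0.91, with no call by edgeR. In the offset fit PP2C.D2, PP2C.D5 and PP2C.D7 were lower in Col-0 at hAT (33.3%, against 11.1%), and in each mutant at nAT 1 was higher (11.1%, against 14% for phyB and 12% for 35S::PIF4) and 2 lower (22.2%, against 9.05% and 10.4%). Of the 11 plasma membrane H+-ATPase genes, 4 were higher (36.4%, against 24.2% of all genes) and 0 lower (against 13.4%) in Col-0 at hAT: AHA5 (2.28), AHA7 (3.62), AHA8 (2.34) and AHA10 (4.38). With the offset these 4 stayed higher, and AHA1 and AHA2, the most widely expressed proton pumps, were lower at -1.10 and -1.16. The median length of these 11 genes is 3447 bases, so the length trend bears on them in the direction opposite to the SAUR genes. Set against Col-0 at nAT, phyB at nAT had 7 higher (63.6%, against 21.2%) and 0 lower (against 11.9%), and 4 and 2 with the offset (36.4% and 18.2%, against 14% and 9.05%). In 35S::PIF4 at nAT 5 were higher (45.5%, against 19.3%) and 0 lower (against 12.2%), and 3 and 5 with the offset (27.3% and 45.5%, against 12% and 10.4%). In 35S::PIF4 against Col-0 at hAT 1 of the 11 genes was lower (9.09%, against 1.61%) and 0 were higher (against 1.47%). The offset also gave 1 lower (9.09%, against 1.79%). In phyB against Col-0 at hAT 0 were higher (against 1.56%) and 0 lower (against 3.22%). Within 35S::PIF4, AHA3 (1.07), AHA6 (1.29) and AHA9 (1.499) were higher at hAT (27.3%, against 8.5%). Within phyB AHA10 (1.02) was higher (9.09%, against 4.63%; 0.97 and not called with the offset) and AHA6 (-1.84) and AHA9 (-1.37) were lower (18.2%, against 3.46%). AHA6 and AHA9 are expressed in pollen and anthers, and the pollen markers, summed, ranged from 37.8 to 103 CPM over the libraries of phyB at hAT, against 76.8 to 80.6 CPM in phyB at nAT. In Col-0 the same sum was 119 to 128 CPM at hAT, against 25.4 to 54.2 CPM at nAT. The part of pollen in the values of any of the 11 proton pump genes was not tested. The 6 auxin receptor genes, TIR1 and AFB1 to AFB5, lay between -0.41 and 0.40 on the log2 scale over the 7 comparisons, short of the fold threshold in each. In the offset fit all 6 lay below 0 in the comparisons against Col-0 at nAT, also short of that threshold, with medians of -0.73 for warm Col-0 (-0.12 without it), -0.74 for phyB (-0.12) and -0.87 for 35S::PIF4 (-0.19), and the lowest single value was -0.98.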

How the data were processed

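Expression was measured by RNA sequencing of poly(A) RNA from pistils, with 4 libraries for each of 6 groups and 150-bp paired-end reads. The authors trimmed reads with fqtools, mapped them to TAIR10 with Araport11 and counted them per gene with featureCounts; the sources used here do not give the aligner, the strand setting or the handling of multiply matching reads. Raw counts and FPKM were deposited by the authors. The FPKM were used for levels only, and were checked to equal the counts over gene length and over a depth set from DESeq2 size factors.

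The members and gene lists were chosen with earlier results of these data known. Deposited counts were filtered with filterByExpr, scaled by TMM and fitted once over 24 libraries with edgeR 4.0.16 (limma 3.58.1, R 4.3.3): quasi-likelihood tests of 7 comparisons and 3 interaction terms, 18 residual degrees of freedom, Benjamini-Hochberg adjustment over 21312 genes. Calls needed an adjusted p below 0.05 and a log2 fold change of 1 or more in either direction. CPM are TMM-scaled, and the standard error is the fold change over the root of F, with the spread pooled over all groups. Replicate 2 of Col-0 at nAT stood apart from the rest of its group (pairwise chi-square per degree of freedom from 32.4 to 58.4). Pairs among replicates 1, 3 and 4 lay between 3.12 and 8.78, and pairs within the other groups reached at most 11.5. The pooled spread does not allow for the distance of replicate 2. Alternatives were RLE normalization, no filter, DESeq2 1.42.0, a length offset (lowess of log2 CPM on log length per library, span 0.3), a replicate block and leaving out each library. A fit without the Col-0 libraries at nAT was added after seeing the data. Only the main fit and the length offset were tested on simulated counts. The length trend added there to Col-0 at nAT was a straight line on log length, and no replicate was made to stand apart. The other alternatives were not simulated. Named genes were, per comparison, up to 4 called rises and 4 called falls with at least 1 CPM and no overlap, the 6 highest by FPKM, SAUR15 and SAUR19 to SAUR24 (listed by the study), and those called in an interaction. SAUR32, SAUR36, SAUR40, SAUR41, SAUR72 and SAUR77 were added after their values were seen. Sequences came from RefSeq TAIR10.1, where 99.95% of genes matched the table's coordinates. Figures were drawn with matplotlib 3.10.9.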

Additional observations from a re-analysis of the deposited data

Results flagged for a closer look

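Of 126 sets of 4 libraries (21 fitted SAUR genes in 6 groups), 7 held a library far from the other 3, where chance gives about 1 in 20. SAUR19 in replicate 2 of Col-0 at nAT was at 11.1 CPM (the others at 3.37 to 4.43 CPM). SAUR20 in replicate 4 of 35S::PIF4 at nAT was at 3.30 CPM (4.43 to 4.59 CPM), and SAUR24 in replicate 4 of Col-0 at hAT at 1.05 CPM (1.35 to 1.39 CPM). SAUR41 in replicate 4 of phyB at nAT was at 2.64 CPM (1.78 to 1.92 CPM), and SAUR66 in replicate 3 of phyB at nAT at 24.2 CPM (25.7 to 25.9 CPM). SAUR67 stood apart in replicate 1 of phyB at hAT, at 18.6 CPM (15.97 to 16.1 CPM), and in replicate 3 of 35S::PIF4 at hAT, at 34.9 CPM (30.5 to 31.1 CPM).

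The temperature response of phyB minus that of Col-0 (log2) passed the test in 12 members. It was 1.68 in SAUR19, 1.98 in SAUR20, 3.13 in SAUR21, 2.28 in SAUR22, 2.13 in SAUR23 and 2.01 in SAUR24. It was 1.54 in SAUR62, 1.97 in SAUR63 and 1.502 in SAUR68, and 1.56 in SAUR50, 1.79 in SAUR78 and 1.33 in SAUR36.

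The temperature response of 35S::PIF4 minus that of Col-0 passed in 16 members. It was 2.74 in SAUR19, 1.79 in SAUR20, 2.46 in SAUR21, 1.996 in SAUR22, 1.57 in SAUR23 and 1.66 in SAUR24. It was 1.92 in SAUR62, 2.17 in SAUR63, 1.54 in SAUR64, 1.51 in SAUR66, 1.53 in SAUR67 and 2.69 in SAUR68, and 1.94 in SAUR50, 2.16 in SAUR78, 1.38 in SAUR36 and 1.15 in SAUR71. Without replicate 2 of Col-0 at nAT the value of SAUR19 was 2.20 and SAUR71 lost its call at 0.88. With the length offset SAUR36 lost its call in both terms, and SAUR64 (0.99), SAUR66 (0.99), SAUR67 (0.96) and SAUR71 (0.57) lost theirs in the term for 35S::PIF4. The response of 35S::PIF4 minus that of phyB passed in SAUR68 (1.18) and SAUR71 (1.28).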

How the results depend on the processing

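No value named for a SAUR gene changed its direction past the threshold under any alternative run. Counts that changed with the processing were these, and where no cause is named the cause was not tested. Shares over all genes are not given for the fits without the filter, with RLE, in DESeq2 or without single replicates. The counts from those fits therefore stand without a background. For Col-0 at hAT against Col-0 at nAT, the 1 member higher was 0 with RLE and in DESeq2, and 2 without the filter on low counts (SAUR40 added, which the filter removes) and 2 with the length offset, and the 16 lower were 9 with the length offset. Of the members that the filter removes, SAUR77 was called lower without it and in DESeq2 in all 3 comparisons against Col-0 at nAT (-2.91 and -3.08 in Col-0 at hAT, -1.499 and -1.59 in phyB, -1.96 and -2.11 in 35S::PIF4), and SAUR40 in 35S::PIF4 at nAT (-2.46 and -2.87). With SAUR15 lost in Col-0 at hAT (-0.9998) and SAUR66 in 35S::PIF4 without the filter, these 3 counts lower were 16, 18 and 14 without it, 17, 18 and 17 in DESeq2 and 16, 17 and 15 with RLE, against 16, 17 and 13. The terms for phyB and 35S::PIF4 minus Col-0 held 12 and 17 without the filter and 13 and 17 in DESeq2 (SAUR77 added), and 11 and 11 with the length offset, against 12 and 16. With the same offset, phyB against Col-0 at nAT had 7 lower and 1 higher (17 and 0 without it), 35S::PIF4 against Col-0 at nAT had 5 lower and 1 higher (13 and 0), and phyB against Col-0 at hAT had 1 higher (0). The 5 higher in 35S::PIF4 against Col-0 at hAT were 4 with the offset. In 35S::PIF4 against Col-0 at hAT, 1 member (SAUR40) was lower without the filter and in DESeq2, against 0. Without single replicates, the count higher in Col-0 at hAT ranged from 0 to 1, and the count higher in phyB against Col-0 at hAT from 0 to 1. The number lower ranged from 14 to 16 in Col-0 at hAT, from 16 to 17 in phyB at nAT and from 11 to 13 in 35S::PIF4 at nAT. A fit without all Col-0 libraries at nAT, chosen after seeing the data, changed 1 of 105 calls: SAUR19 passed in the response of 35S::PIF4 minus that of phyB (1.06, adjusted p = 0.00387 by edgeR).

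Same-numbered libraries had correlations of deviations between -0.167 and 0.174 (60 pairs), and 9 of 24 libraries correlated best with their own number. These values show no clear pairing by number but cannot exclude one. A replicate block gave 15 lower in Col-0 at hAT, with SAUR15 at -0.98, and changed no other call of a member. Members near 1 CPM, SAUR15, SAUR32 and SAUR36 among them, rest on few counts per library.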
